A study of Rattus norvegicus with 12 samples.

Results

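Cellular iron handling was followed through 10 genes in cultured rat cells that were first deprived of oxygen and glucose and then given both back. The genes were the transferrin receptor Tfrc, the metal transporter Slc11a2 and the metalloreductase family member Steap1; the ferritin chains Fth1 and Ftl1 and the ferritin cargo receptor Ncoa4; the iron exporter Slc40a1; the iron regulatory proteins Aco1 and Ireb2; and the siderophore-binding protein Lcn2. They were found by gene name among 30454 genes of the count table. Since Ftl1 and Ncoa4 each have a pair of Ensembl identifiers there, the 10 genes took up 12 rows. A filter on low counts left 10 of these rows, from 9 of the genes, among 13692 genes tested; Slc40a1 and the other Ncoa4 row fell below it.

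RNA was sequenced in bulk from 12 libraries, 4 in each of 3 groups, all of cells labelled PC12, a line from a rat adrenal tumour. The rTMS-MSCs group had mesenchymal stem cells and repetitive transcranial magnetic stimulation at 10 Hz after deprivation, the MSCs group had the stem cells alone, and the OGDR group had deprivation and reoxygenation with neither. All 3 groups share the deprivation and the sampling time of 48 h, no group without deprivation was analysed here, and the labels do not say what species the stem cells were, how they met the labelled cells, which of the cells were stimulated, or whether the 4 libraries of 1 group came from 4 cultures. The p-values therefore measure only the spread between these samples, which may be technical. The library rTMS-MSCs 3 stood apart: its chi-square distance per gene to the other libraries of its group was 13.5 to 25.0, against 4.03 to 10.5 for the 15 other pairs within groups, and results that rest on it are given with and without it. Libraries held 18246250 to 20471838 counts in genes. Levels are given in CPM, in which the counts of each library are scaled to the same total after TMM adjustment, and are compared between groups and not between genes, because no transcript length was used. The markers that define chromaffin cells were nearly silent: 8 such genes summed to 1.99 to 3.21 CPM in rTMS-MSCs, 2.00 to 3.37 CPM in MSCs and 1.45 to 3.22 CPM in OGDR, and 2 of them had no count in any library. The sum of 5 Schwann cell markers ran from 806 to 912 CPM in rTMS-MSCs, from 843 to 894 CPM in MSCs and from 735 to 820.4 CPM in OGDR, so the cells are called by their label only.

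Cells take up iron mainly as transferrin bound to the transferrin receptor. In the endosome the ferric iron is reduced by a metalloreductase and leaves through the transporter encoded by Slc11a2. Iron that is not used at once is stored in ferritin, a shell of heavy chains, which oxidise iron, and light chains, which help it to mineralise; NCOA4 carries ferritin to the lysosome when iron is to be released, and ferroportin, encoded by Slc40a1, exports it. The iron regulatory proteins encoded by Aco1 and Ireb2 bind iron-responsive elements when iron is scarce, which stabilises the Tfrc transcript and blocks translation of both ferritin transcripts. Lipocalin 2 binds bacterial siderophores that carry iron and is known as a protein of acute inflammation. In neural tissue, excess free iron after oxygen and glucose deprivation is known to feed oxidative damage.

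Of the members with a RefSeq promoter entry, 8 of 10, the sequences upstream of Tfrc, Steap1 and Lcn2 are shown because these members' log2 fold changes from OGDR were the furthest from 0 among the called ones. Each is the 250 bases before the annotated start, written 5′ to 3′ on the strand of the gene. The Tfrc window is chr11:81690319-81690568 (GRCr8, minus strand), the Steap1 window chr4:29231559-29231808 (GRCr8, plus strand) and the Lcn2 window chr3:36081781-36082030 (GRCr8, minus strand). Capitals mark matches to short motifs: ACGTG, the core of the hypoxia response element, and TGACGTNA, a cyclic AMP response element-like site, in Tfrc; GGGCGG, the GC box, in Steap1; a narrow spelling of the NF-kB site, GGGAA and CC with any 3 bases between them, and TTGCNNAA, a C/EBP site, in Lcn2.
Tfrc: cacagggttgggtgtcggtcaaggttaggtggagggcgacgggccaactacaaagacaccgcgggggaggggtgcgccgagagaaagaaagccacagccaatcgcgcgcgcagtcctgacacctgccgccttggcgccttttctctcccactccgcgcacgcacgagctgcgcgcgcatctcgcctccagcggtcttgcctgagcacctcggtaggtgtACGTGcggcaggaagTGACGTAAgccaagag
Steap1: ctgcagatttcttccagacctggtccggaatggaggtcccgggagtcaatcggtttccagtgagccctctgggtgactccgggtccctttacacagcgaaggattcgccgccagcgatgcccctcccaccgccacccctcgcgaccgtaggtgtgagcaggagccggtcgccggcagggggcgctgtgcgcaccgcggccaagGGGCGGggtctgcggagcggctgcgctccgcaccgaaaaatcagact
Lcn2: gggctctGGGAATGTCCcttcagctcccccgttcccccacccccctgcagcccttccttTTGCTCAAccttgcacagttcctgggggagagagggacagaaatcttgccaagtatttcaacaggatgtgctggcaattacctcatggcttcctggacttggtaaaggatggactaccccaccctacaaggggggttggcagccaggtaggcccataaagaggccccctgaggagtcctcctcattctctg
All 5 motifs were searched on both strands, and the 5 matches described next are the only ones in these 3 windows. In Tfrc the ACGTG match began 31 bases and the TGACGTAA match 16 bases before the start. The GC box of Steap1 began 47 bases before it. In Lcn2 the GGGAATGTCC match began 243 bases and the TTGCTCAA match 191 bases before the start. None of these 5 matches overlapped another. Among the members whose windows are not shown, GGGCGG was also found in Aco1, Slc11a2, Ireb2, Slc40a1 and Ncoa4, and ACGTG also in Ncoa4. Those members did not pass in any comparison. Of all 33469 windows of the same length, ACGTG was found in 16.6%, TGACGTNA in 2.88%, GGGCGG in 30.5%, the NF-kB spelling in 5.07% and TTGCNNAA in 9.22%. The spellings were chosen with the windows in view, and a match is a description of letters, not a site shown to be bound.

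In MSCs against OGDR, 5 of the 10 tested rows changed at an adjusted p under 0.05 in edgeR's quasi-likelihood (QL) test, with Steap1, Fth1 and Lcn2 higher and Tfrc and Ftl1 lower; 20.2% of all tested genes changed in that comparison, 11.6% upwards and 8.63% downwards. In all 5 the CPM ranges of the groups did not overlap, as in 24.6% of all tested genes. The ranges did not overlap in 19% of all tested genes in rTMS-MSCs against MSCs and in 30.3% in rTMS-MSCs against OGDR. In rTMS-MSCs against MSCs, Fth1 and Ftl1 rose and Tfrc fell, 3 of 10 rows against 18.1% of all tested genes (7.14% up and 10.9% down). Without MSCs 3 the count was 1 of 10. All tested genes called in rTMS-MSCs against MSCs were 2475, and from 1006 to 3196 with 1 library left out. In rTMS-MSCs against OGDR, Steap1, Fth1 and Lcn2 rose and Tfrc fell, 4 of 10 rows against 32.4% of all tested genes, with 16.2% up and 16.2% down. The median log2 fold change over the 10 rows was -0.013, 0.046 and -0.087 in these 3 comparisons, beside -0.0021, 0.015 and 0.0080 over all tested genes. The comparisons share groups, so their values are set side by side and not counted as support for each other.

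Tfrc, which brings transferrin-bound iron into the cell, was lower in both groups with stem cells. Its level was 117, 108, 97.4 and 133 CPM in rTMS-MSCs, 137, 127, 146 and 134 CPM in MSCs, and 232, 234, 267.5 and 245 CPM in OGDR. The lowest OGDR library thus stood above the highest library of either other group, while rTMS-MSCs and MSCs overlapped through rTMS-MSCs 4. A separation from OGDR was seen in 24.6% of all tested genes for MSCs and in 30.3% for rTMS-MSCs. Tfrc fell by 44.4% in MSCs against OGDR (log2 fold change -0.85 ± 0.077 SE, QL adjusted p = 6.52e-08). It also fell in rTMS-MSCs against OGDR (log2 fold change -1.10 ± 0.078 SE, QL adjusted p = 1.21e-09). In rTMS-MSCs against MSCs it fell by less, with a log2 fold change of -0.26 ± 0.078 (QL adjusted p = 0.0290). That last change did not pass without MSCs 1 (-0.25, adjusted p = 0.0745), without MSCs 3 (-0.22, adjusted p = 0.114), without rTMS-MSCs 2 (-0.23, adjusted p = 0.0823) or without rTMS-MSCs 3 (-0.19, adjusted p = 0.0781), and without both replicates 3 it was -0.15 (QL adjusted p = 0.216).

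Steap1 belongs to a family of membrane proteins whose other members reduce iron and copper, and it moved the other way. It stood at 16.0, 16.9, 14.5 and 13.4 CPM in rTMS-MSCs, 11.2, 12.3, 11.96 and 13.2 CPM in MSCs, and 6.28, 6.80, 7.13 and 5.56 CPM in OGDR. No group overlapped another. Of all tested genes, 24.6% were so separated in MSCs against OGDR, 19% in rTMS-MSCs against MSCs and 30.3% in rTMS-MSCs against OGDR. It rose by 0.91 ± 0.12 (log2, SE) in MSCs against OGDR (QL adjusted p = 9.09e-06) and by 1.24 ± 0.12 in rTMS-MSCs against OGDR (QL adjusted p = 1.15e-07). Between rTMS-MSCs and MSCs the log2 fold change was 0.33, with a 95% interval of 0.088 to 0.56, and it did not pass (QL adjusted p = 0.0523). It did pass there by the Wald test of DESeq2 (adjusted p = 0.0303), by limma voom (adjusted p = 0.0132), with upper quartile scaling (adjusted p = 0.0434), with a filter of 1 CPM in 4 libraries (adjusted p = 0.0484) and without rTMS-MSCs 4 (QL adjusted p = 0.0280).

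Slc11a2, the transporter that moves ferrous iron out of the endosome, did not pass in any comparison. It ranged from 69.5 to 74.9 CPM in rTMS-MSCs, from 70.3 to 81.4 CPM in MSCs and from 72.9 to 80.8 CPM in OGDR. The groups overlapped in all 3 comparisons. In the RefSeq annotation of GRCr8 its span overlaps that of a long non-coding RNA, and the strand setting of the counting is not known. The 95% interval of its log2 fold change was -0.17 to 0.095 in MSCs against OGDR, -0.18 to 0.085 in rTMS-MSCs against MSCs and -0.21 to 0.049 in rTMS-MSCs against OGDR. A change as large as that of Tfrc from OGDR lies outside these intervals.

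**Figure D1:**
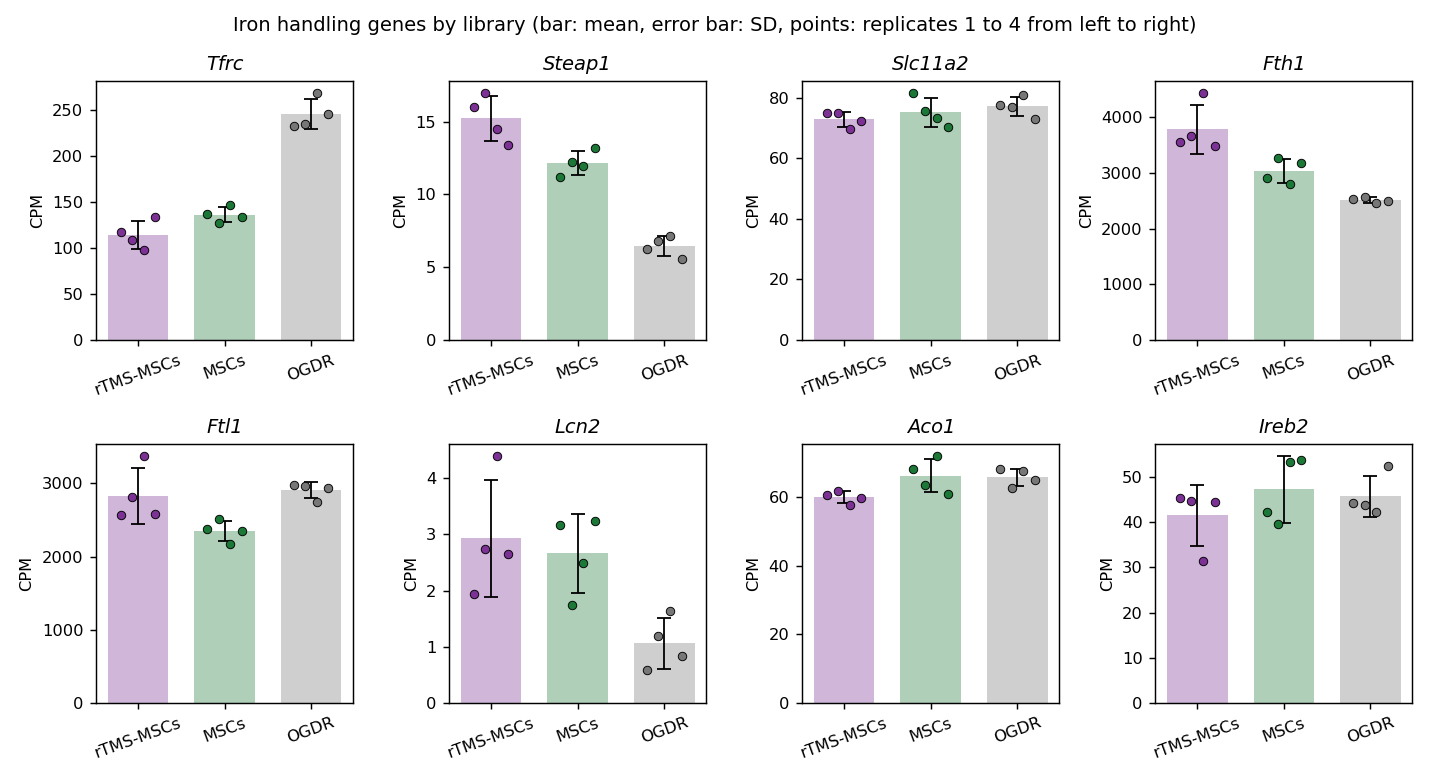
Level of 8 iron handling genes in each library, in CPM on axes that start at 0, for rTMS-MSCs, MSCs and OGDR; bars are means of 4 libraries, error bars SD, and points the replicates. Tfrc averaged 114 CPM in rTMS-MSCs, 136 CPM in MSCs and 245 CPM in OGDR, while Steap1 and Fth1 ran in the opposite order and Slc11a2, Aco1 and Ireb2 stayed close together.

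**Figure D2:**
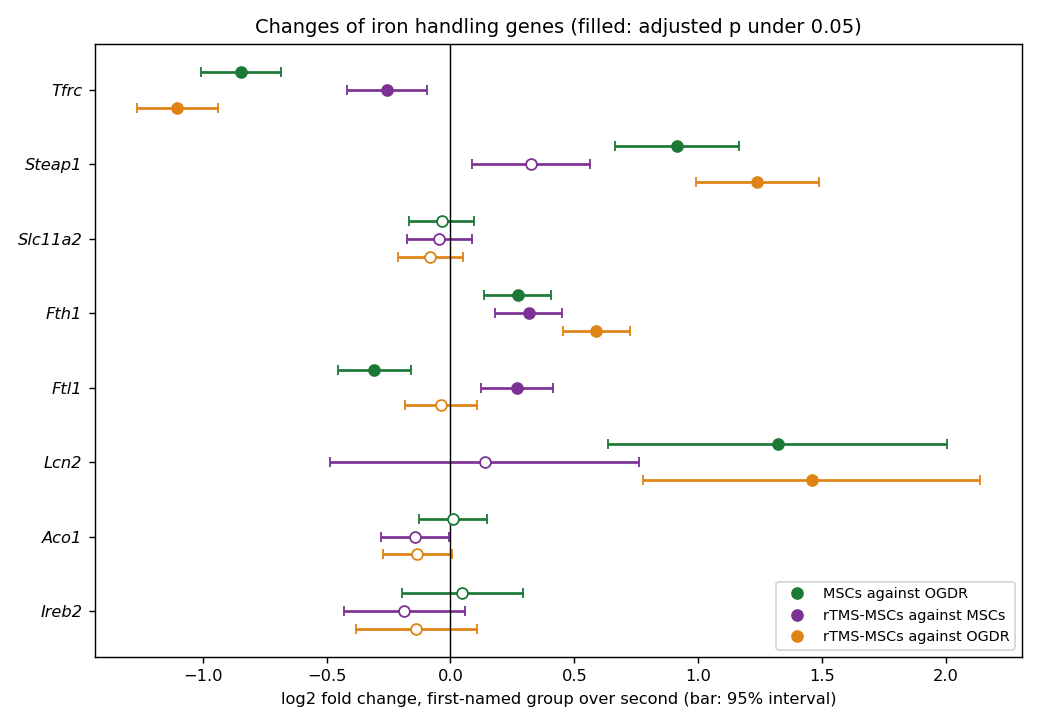
Log2 fold changes of the same 8 genes with 95% intervals in the 3 comparisons, the group named before the word against over the other one; filled points have an adjusted p under 0.05. Ftl1 lies at -0.31 in MSCs against OGDR and at 0.27 in rTMS-MSCs against MSCs, while Fth1 is above 0 in all 3 comparisons.

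Of the ferritin chains, Fth1 rose and Ftl1 fell in MSCs against OGDR, while both rose in rTMS-MSCs against MSCs. Fth1, the heavy chain, had 3551, 3667, 4426 and 3485 CPM in rTMS-MSCs, 2899.9, 3261, 2806 and 3177 CPM in MSCs, and 2535, 2575, 2466 and 2487 CPM in OGDR. Every library of a group stood apart from those of the other groups, and rTMS-MSCs 3, the library that stood apart, was the highest of all. Such a separation was seen in 24.6% of all tested genes in MSCs against OGDR, 19% in rTMS-MSCs against MSCs and 30.3% in rTMS-MSCs against OGDR. Fth1 rose by 0.27 ± 0.065 (log2, SE) in MSCs against OGDR (QL adjusted p = 0.00455), by 0.32 ± 0.065 in rTMS-MSCs against MSCs (QL adjusted p = 0.00368) and by 0.59 ± 0.065 in rTMS-MSCs against OGDR (QL adjusted p = 7.77e-07). Without both replicates 3 the value for rTMS-MSCs against MSCs was 0.20 (QL adjusted p = 0.0113), smaller by more than 1.5 times, and without rTMS-MSCs 3 alone it was 0.23 (QL adjusted p = 0.00248). Under the 21 alternatives, which include the fit without rTMS-MSCs 3, the value for rTMS-MSCs against OGDR ran from 0.50 to 0.63.

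Ftl1, the light chain, had nearly all its counts on the identifier ENSRNOG00000064385. There it stood at 2562, 2811, 3374 and 2575 CPM in rTMS-MSCs, 2377, 2508, 2165 and 2353 CPM in MSCs, and 2985, 2967, 2740.2 and 2938 CPM in OGDR. MSCs lay below both other groups without overlap, and rTMS-MSCs and OGDR overlapped. Of all tested genes, 24.6% did not overlap in MSCs against OGDR and 19% in rTMS-MSCs against MSCs. Ftl1 fell by 19.2% in MSCs against OGDR (log2 fold change -0.31 ± 0.070 SE, QL adjusted p = 0.00315) and rose in rTMS-MSCs against MSCs (0.27 ± 0.070, QL adjusted p = 0.0136). That rise did not pass without MSCs 3 (0.23, adjusted p = 0.0554) or without both replicates 3 (0.13, adjusted p = 0.0988), and without rTMS-MSCs 3 alone it was 0.17 (QL adjusted p = 0.0226). In rTMS-MSCs against OGDR the log2 fold change was -0.039, with a 95% interval of -0.18 to 0.11 (QL adjusted p = 0.712). Without rTMS-MSCs 3, its highest library, that value was -0.13 and passed (QL adjusted p = 0.0448), as it did without both replicates 3 (-0.13, QL adjusted p = 0.0240).

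The ratio of Fth1 to Ftl1 counts within a library does not depend on how libraries are scaled. It averaged 1.34 ± 0.038 in rTMS-MSCs (range 1.30 to 1.39), 1.29 ± 0.054 in MSCs (1.22 to 1.35) and 0.866 ± 0.025 in OGDR (0.846 to 0.900; SD, n = 4 each). Every library with stem cells was thus above every OGDR library, and rTMS-MSCs and MSCs overlapped. Together the ferritin chains took 0.600 to 0.751% of all counts in rTMS-MSCs, 0.503 to 0.577% in MSCs and 0.528 to 0.554% in OGDR. Without rTMS-MSCs 3, which held the 0.751%, the rTMS-MSCs range was 0.600 to 0.645%. The ratio of Tfrc to Fth1 counts was 0.0307 ± 0.0068 in rTMS-MSCs, 0.0451 ± 0.0058 in MSCs and 0.0974 ± 0.0082 in OGDR (SD, n = 4 each). The groups did not overlap, but rTMS-MSCs 4 at 0.0381 lay close to MSCs 2 at 0.0390. The lowest value, 0.0220, was that of rTMS-MSCs 3. These ratios were formed after the levels were seen and are given with no test. The share of all gene pairs whose ratio separates the groups in this way was not examined.

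**Figure D3:**
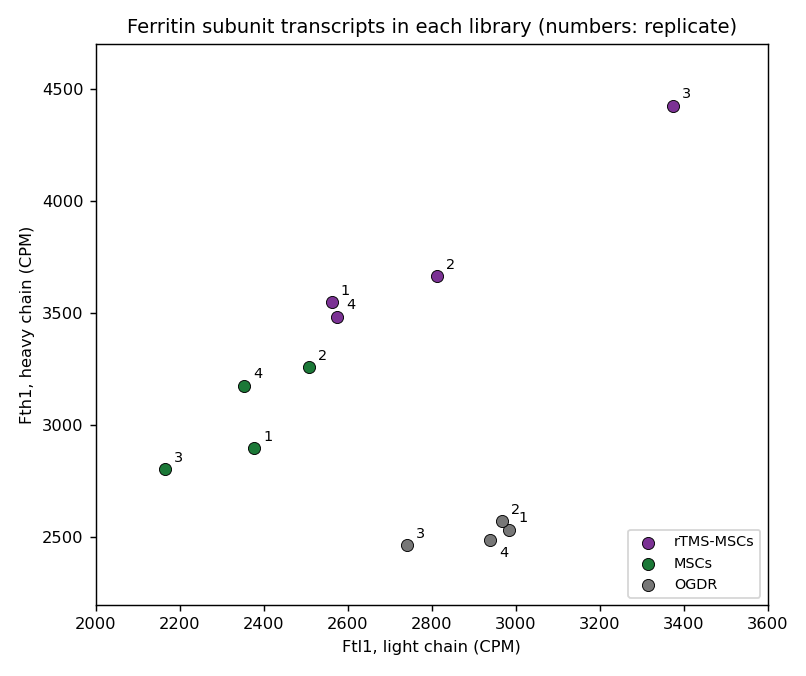
Fth1 against Ftl1 in each library, both in CPM, with points coloured by group and numbered by replicate; neither axis starts at 0. The 4 OGDR libraries lie low and to the right (Fth1 2466 to 2575 CPM), the 4 MSCs libraries above and to the left, and the 4 rTMS-MSCs libraries further up, with replicate 3 alone at 4426 CPM of Fth1 and 3374 CPM of Ftl1.

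Ferritin genes have near-identical processed copies. How the counting treated reads that match more than 1 copy was not examined, so the ferritin levels carry that uncertainty. The copy Fth1-ps5 averaged 105 ± 9.97 CPM in rTMS-MSCs, 66.6 ± 12.7 CPM in MSCs and 62.4 ± 11.02 CPM in OGDR (SD, n = 4 each). It rose in rTMS-MSCs against MSCs (log2 fold change 0.65 ± 0.12 SE, QL adjusted p = 0.00233) and in rTMS-MSCs against OGDR (0.75 ± 0.12, QL adjusted p = 1.02e-04), and not by the test in MSCs against OGDR (0.094, QL adjusted p = 0.655). The rows Ftl1l1 and Ftl1-ps14 stayed under 7 CPM in all libraries and did not pass in any comparison. On its other identifier, ENSRNOG00000020843, Ftl1 had 5 to 23 counts per library and did not pass either.

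Ncoa4, the receptor that brings ferritin to the lysosome, was nearly absent from the table. One identifier, ENSRNOG00000019768, had no count in any of the 12 libraries. The other, ENSRNOG00000063221, had 94 counts over all 12, with 0 to 14 in a library, and averaged 0.338 CPM in rTMS-MSCs, 0.363 CPM in MSCs and 0.493 CPM in OGDR. It did not pass, and its 95% intervals reach past a 2-fold difference, from -1.71 to 0.84 on the log2 scale in MSCs against OGDR. In the RefSeq annotation of GRCr8 the span of Ncoa4 overlaps that of Pargl1. Reads that the counting tool set aside as ambiguous between genes made up 0.613 to 0.695% of the reads in the table; their part in the low Ncoa4 count was not tested.

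Slc40a1, which encodes the exporter ferroportin, had 15 counts over the 12 libraries, 10 in rTMS-MSCs, 2 in MSCs and 3 in OGDR. At 0.212 CPM in its highest library it fell below the filter. In the fit with no filter it did not pass, and its 95% intervals were wide, -0.45 to 4.56 on the log2 scale in rTMS-MSCs against MSCs (QL adjusted p = 0.324), -3.17 to 2.34 in MSCs against OGDR (QL adjusted p = 0.914) and -0.74 to 4.02 in rTMS-MSCs against OGDR (QL adjusted p = 0.380). Its RefSeq span overlaps those of Plp2l1, Asnsd1 and Asdurf. Its 15 counts have an exact Poisson 95% interval of 8.40 to 24.7, which covers counting error only.

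The transcripts of the iron regulatory proteins did not pass in any comparison. Aco1, the cytosolic aconitase that binds iron-responsive elements once it has lost its cluster, had 60.8, 62.0, 57.6 and 59.8 CPM in rTMS-MSCs, 68.3, 63.7, 72.1 and 61.1 CPM in MSCs, and 68.2, 62.7, 67.7 and 65.0 CPM in OGDR. All 4 rTMS-MSCs libraries were below all 4 OGDR libraries, a separation that 30.3% of tested genes show in that comparison. Its log2 fold change there was -0.13 (95% interval -0.27 to 0.0043, QL adjusted p = 0.131), and in MSCs against OGDR it was 0.0094 (-0.13 to 0.15, QL adjusted p = 0.945).

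Ireb2, the other regulatory protein, which is degraded when iron is plentiful, had 45.4, 44.8, 31.5 and 44.5 CPM in rTMS-MSCs, 42.4, 39.6, 53.5 and 53.8 CPM in MSCs, and 44.3, 43.9, 42.4 and 52.4 CPM in OGDR. The groups overlapped, and rTMS-MSCs 3 was lower than all other libraries. The log2 fold change was 0.048 in MSCs against OGDR (95% interval -0.20 to 0.29, QL adjusted p = 0.826) and -0.19 in rTMS-MSCs against MSCs (-0.43 to 0.059, QL adjusted p = 0.274). Without rTMS-MSCs 3 the value for rTMS-MSCs against MSCs was -0.073 (QL adjusted p = 0.691). Fbxl5, the iron-sensing ligase subunit that targets this protein for degradation, averaged 45.6 CPM in rTMS-MSCs, 47.4 CPM in MSCs and 57.5 CPM in OGDR. It fell in MSCs against OGDR (-0.28 ± 0.070, QL adjusted p = 0.00641) and in rTMS-MSCs against OGDR (-0.33 ± 0.070, QL adjusted p = 0.00116).

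Tfrc and Slc11a2 carry iron-responsive elements after the coding sequence, where the regulatory proteins protect the transcript; Fth1 and Ftl1 carry one before the coding sequence, where they block translation. In MSCs against OGDR, Tfrc fell and Slc11a2 did not pass, and Fth1 rose and Ftl1 fell. In rTMS-MSCs against MSCs, Tfrc fell, Slc11a2 did not pass, and Fth1 and Ftl1 both rose, with the dependence on single libraries given above. Counts per gene do not separate transcript forms and do not measure translation. The part of the regulatory proteins in these values was not tested.

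Lcn2, the secreted carrier of siderophores, was higher with stem cells but scarce. It had 39, 52, 83 and 53 counts in rTMS-MSCs, 63, 34, 46 and 61 counts in MSCs, and 12, 24, 34 and 16 counts in OGDR. The CPM values were 1.94, 2.74, 4.40 and 2.66 in rTMS-MSCs, 3.17, 1.74, 2.49 and 3.24 in MSCs, and 0.584, 1.18, 1.64 and 0.831 in OGDR. In CPM both groups with stem cells lay above OGDR, and they overlapped with each other. The lowest MSCs library, at 1.74 CPM, was close to the highest OGDR library, at 1.64 CPM, with 34 counts in each. Groups were so separated in 24.6% of all tested genes in MSCs against OGDR and in 30.3% in rTMS-MSCs against OGDR. Lcn2 rose by 1.32 ± 0.33 (log2, SE) in MSCs against OGDR (QL adjusted p = 0.00612) and by 1.46 ± 0.33 in rTMS-MSCs against OGDR (QL adjusted p = 0.00195), with 95% intervals of 0.63 to 2.01 and 0.78 to 2.14. In rTMS-MSCs against MSCs it did not pass (0.14, 95% interval -0.49 to 0.76, QL adjusted p = 0.782).

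Neutrophils and macrophages are known sources of Lcn2. The 6 neutrophil markers, of which 2 had no count in any library, summed to 0.149 to 0.371 CPM in rTMS-MSCs, 0.0503 to 0.266 CPM in MSCs and 0.0487 to 0.260 CPM in OGDR. The 8 macrophage markers, 3 of them without a count, summed to 2.51 to 3.95 CPM in rTMS-MSCs, 2.32 to 3.13 CPM in MSCs and 2.71 to 4.63 CPM in OGDR. Most of the macrophage sum was Cd68, at 2.95 CPM on average in rTMS-MSCs, 2.65 CPM in MSCs and 3.33 CPM in OGDR. Cd68 did not pass in any comparison. The 10 mesenchymal stromal markers, 1 of them without a count, summed to 281 to 358 CPM in rTMS-MSCs, 367 to 391 CPM in MSCs and 342 to 358 CPM in OGDR. Pdgfra made up most of that sum. Of the 7 stromal markers tested, 3 rose and none fell in MSCs against OGDR, beside 11.6% of all tested genes up and 8.63% down. They were Nt5e (0.73 on the log2 scale, QL adjusted p = 9.39e-05), Pdgfrb (0.47, QL adjusted p = 1.14e-04) and Col3a1 (1.47, QL adjusted p = 0.0459), and these moved alongside the member changes of that comparison. Col3a1 was scarce, with 3 to 8 counts per library in OGDR and 13 to 24 in MSCs. Of the 10 stromal markers, 3 averaged at least 10 CPM over the 12 libraries. Nt5e, Pdgfrb and Col3a1 also rose and Pdgfra fell in rTMS-MSCs against OGDR, beside 16.2% of all tested genes up and 16.2% down. In rTMS-MSCs against MSCs, Pdgfra alone fell (-0.27, QL adjusted p = 0.00819), beside 10.9% of all tested genes down. The part of macrophages, neutrophils and stromal cells in these results was not tested, and in bulk samples fewer cells of a type cannot be told apart from less RNA per cell. Slc22a17, a receptor for lipocalin 2, averaged 56.0 CPM in rTMS-MSCs, 51.5 CPM in MSCs and 46.7 CPM in OGDR. It rose in rTMS-MSCs against OGDR (0.26 ± 0.082, QL adjusted p = 0.0194), a call that did not pass without OGDR 3 (0.21, adjusted p = 0.0804), without OGDR 4 (0.25, adjusted p = 0.0512) or without rTMS-MSCs 3 (0.19, adjusted p = 0.0682).

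Around these genes stood a wider list of 66 iron genes, of which 51 were tested. In MSCs against OGDR 6 rose and 6 fell, with a median log2 fold change of -0.045 beside -0.0021 over all tested genes, and 12 of 51 is near the background of 20.2% of all tested genes. Without MSCs 3 the count was 7, and all tested genes called went from 2763 to 2382. In rTMS-MSCs against OGDR 11 rose and 7 fell, beside the 32.4% of all tested genes (16.2% up and 16.2% down).

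Among genes of export and uptake the difference furthest from 0 was in Cp, ceruloplasmin, the copper oxidase that loads exported iron onto transferrin. It had 90.8, 84.6, 65.7 and 96.1 CPM in rTMS-MSCs, 95.4, 82.6, 85.1 and 94.95 CPM in MSCs, and 19.2, 21.8, 23.6 and 23.1 CPM in OGDR. The groups with stem cells lay far above OGDR and overlapped with each other. Ranges did not overlap in 24.6% of all tested genes in MSCs against OGDR and in 30.3% in rTMS-MSCs against OGDR. Cp rose 4.08-fold in MSCs against OGDR (log2 fold change 2.03 ± 0.10 SE, QL adjusted p = 6.70e-12) and by 1.94 ± 0.10 in rTMS-MSCs against OGDR (QL adjusted p = 1.17e-11). Slc39a14, which imports iron that is not bound to transferrin, averaged 102 CPM in rTMS-MSCs, 113 CPM in MSCs and 79.1 CPM in OGDR and rose by 0.52 ± 0.067 in MSCs against OGDR (QL adjusted p = 7.14e-06). Tmprss6, a protease that restrains hepcidin signalling in the liver, was the other export gene tested and was named after its value was seen. It rose in MSCs against OGDR (0.37, QL adjusted p = 0.0433), but not without MSCs 2 (0.22, adjusted p = 0.213) and not without OGDR 1, 3 or 4, MSCs 3 or rTMS-MSCs 1 or 2, where the adjusted p ran from 0.0530 to 0.111.

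Steap3, the endosomal ferrireductase of red cell precursors, averaged 103 CPM in rTMS-MSCs, 102 CPM in MSCs and 91.7 CPM in OGDR. It passed in rTMS-MSCs against OGDR (0.16 ± 0.060, QL adjusted p = 0.0451) but under 13 of 21 alternatives it did not, among them the fits without OGDR 1, 3 or 4, without MSCs 1 or 4, or without any 1 rTMS-MSCs library (adjusted p from 0.0517 to 0.138). Its relatives Steap2 and Steap4 had 19 and 4 counts over all 12 libraries and were not tested. The transferrin gene Tf, and Pcbp1 and Pcbp2, which chaperone iron to ferritin, did not pass in any of the 3 comparisons.

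Haem is broken down by Hmox1, which frees its iron. Hmox1 averaged 293 CPM in rTMS-MSCs, 257 CPM in MSCs and 442 CPM in OGDR. Against OGDR it fell by 41.9% in MSCs (log2 fold change -0.78 ± 0.060 SE, QL adjusted p = 4.49e-09). The fall from OGDR was 33.7% in rTMS-MSCs (log2 fold change -0.59 ± 0.060 SE, QL adjusted p = 2.22e-07). Hmox1 was higher in rTMS-MSCs than in MSCs (0.19 ± 0.060, QL adjusted p = 0.0342), though not in the fit of the 8 libraries compared, nor without MSCs 1, MSCs 3, MSCs 4, rTMS-MSCs 2 or rTMS-MSCs 3, where the adjusted p ran from 0.0590 to 0.109. In all, 7 of 21 alternatives did not pass there, with an adjusted p of up to 0.188. Of the 16 haem genes tested in MSCs against OGDR, 2 were called, beside the 20.2% of all tested genes: Hmox1 fell, and Fech, the ferrochelatase that inserts iron into haem, rose (0.43 ± 0.11, QL adjusted p = 0.00541; named after its value was seen). Cpox, an earlier enzyme of haem synthesis, fell in rTMS-MSCs against MSCs (-0.40 ± 0.096, QL adjusted p = 0.00883), and without MSCs 3 it did not pass (-0.32, adjusted p = 0.0510). For Cpox 2 of 21 alternatives did not pass there, with an adjusted p of up to 0.105.

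Of 23 genes of mitochondrial iron and iron-sulphur clusters tested in MSCs against OGDR, 2 rose, 4 fell and 17 did not pass, a share near the 20.2% of all tested genes. Fdx1, a ferredoxin, averaged 29.9 CPM in rTMS-MSCs, 24.9 CPM in MSCs and 16.9 CPM in OGDR and rose by 0.56 ± 0.12 in MSCs against OGDR (QL adjusted p = 0.00181). Slc25a37, the mitochondrial iron importer mitoferrin, averaged 41.9 CPM in rTMS-MSCs, 45.5 CPM in MSCs and 57.6 CPM in OGDR and fell by 0.34 on the log2 scale (QL adjusted p = 0.00312). Mms19, which delivers clusters to nuclear enzymes, also rose, and Cisd1, Isca1 and Abcb8 also fell, by log2 fold changes of 0.22, -0.24, -0.18 and -0.21; Mms19, Isca1 and Abcb8 were named after their values were seen. None of these 4 passed without MSCs 3, where the adjusted p ran from 0.0508 to 0.112, or without OGDR 2. Isca1, Mms19 and Abcb8 also did not pass without OGDR 3, OGDR 4, MSCs 1 or MSCs 2, Isca1 and Abcb8 without MSCs 4, Mms19 and Abcb8 without rTMS-MSCs 1 or 2, and Abcb8 without OGDR 1.

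With stimulation added, 7 genes of the wider list rose and 1, Cpox, fell in rTMS-MSCs against MSCs. That was 8 of 51, beside the 18.1% of all tested genes (7.14% up and 10.9% down). The risers were Hmox1, Bdh2, a dehydrogenase linked to siderophore synthesis, and 5 of the 23 tested genes of the mitochondrial and iron-sulphur group. These 5 were the second mitoferrin Slc25a28, Cisd1, the scaffold protein Iscu, the assembly factor Isca2 and the cytosolic assembly factor Nubp2. Iscu, Isca2 and Nubp2 were named after their values were seen. Their log2 fold changes ran from 0.19 for Hmox1 to 0.26 for Slc25a28. None of the 7 rises passed without MSCs 1, without MSCs 3 or without rTMS-MSCs 3. Isca2 and Nubp2 also did not pass without OGDR 1, OGDR 3 or rTMS-MSCs 1, and Isca2 not without OGDR 4 or rTMS-MSCs 4. The list's count was 1 without MSCs 1, 0 without MSCs 3 (edgeR, with 14 at an unadjusted p under 0.05), 3 without MSCs 4, 5 without rTMS-MSCs 2 and 1 without rTMS-MSCs 3, and with all libraries DESeq2 called 11. All tested genes called in this comparison were 2475, and from 1006 to 3196 with 1 library left out.

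**Figure D4:**
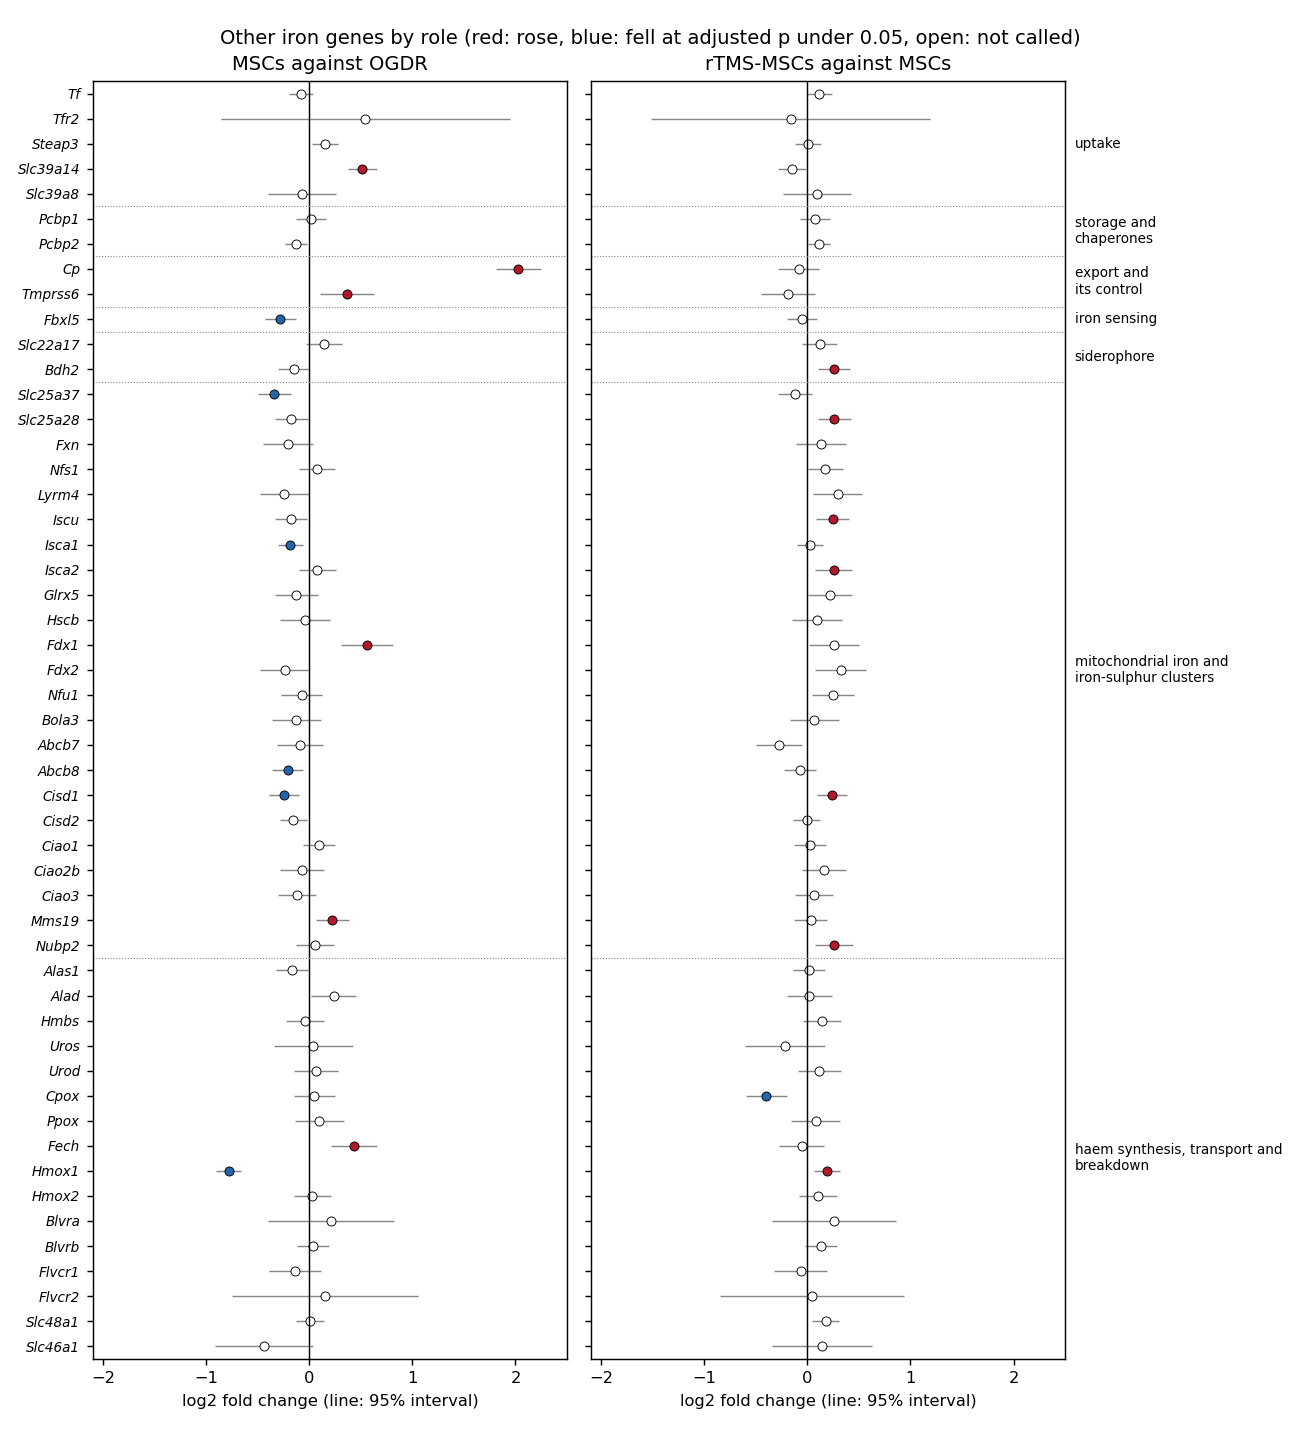
Log2 fold changes with 95% intervals of the 51 tested genes of the wider iron list, by role, in MSCs against OGDR and in rTMS-MSCs against MSCs; red points rose and blue points fell at an adjusted p under 0.05. Cp at 2.03 and Hmox1 at -0.78 lie furthest from 0 among the called genes of MSCs against OGDR, and no called gene of rTMS-MSCs against MSCs is further from 0 than Cpox at -0.40.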

How the data were processed

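Bulk RNA was sequenced in 12 libraries. Per the submitters' processing notes the tools were HISAT2 2.1.0, HTSeq 0.11.2 and DESeq2 1.40.1 with the rat build mRatBN7.2; whether strand was used in counting is not given in these sources. The deposited table holds a raw count per gene and library, and its 5 summary lines, which name no gene, did not enter the library totals or any test. Reads on no feature made up 51.7 to 52.7% of the reads in it. Members and lists were chosen with earlier results of these data known.

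Genes were kept by filterByExpr (minimum count 10, minimum total 15) in edgeR 4.0.16 (R 4.3.3), scaled by TMM, and fitted in 1 quasi-likelihood model of all 12 libraries with a mean per group. Benjamini-Hochberg adjustment covered the 13692 tested genes, and the threshold was 0.05, 2-sided. Standard errors and 95% intervals come from the test's F statistic. The fit was checked on simulated data with known changes. Alternatives used DESeq2 1.42.0 and limma 3.58.1. Of 66 wider-list symbols, 65 matched the table; Nubp1 did not. Named were all members, the 4 smallest p per comparison in the wider list, and Fbxl5, Slc22a17, Hmox1 and Steap2 to Steap4; Tmprss6, Fech, Mms19, Isca1, Abcb8, Iscu, Isca2, Nubp2, Tf, Pcbp1, Pcbp2 and the marker genes were named after their values were seen. Promoters are from RefSeq (GRCr8). A group of transcripts with iron-responsive elements is not reported here as a list.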

Additional observations from a re-analysis of the deposited data

Results flagged for a closer look

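In 4 of the 90 sets of 4 libraries examined (30 genes in 3 groups), the highest or lowest library stood apart from the other three by Dixon's 95% criterion, and chance alone gives about 5% of sets. Ireb2 was 31.5 CPM in rTMS-MSCs 3, against 44.5 to 45.4 CPM in the other libraries of that group. Cisd1 was 86.5 CPM in rTMS-MSCs 3, against 73.9 to 74.5 CPM in the others. Isca1 was 67.9 CPM in MSCs 1, against 71.5 to 71.9 CPM in the others. The scarce Ncoa4 row was 0.718 CPM in MSCs 2, against 0.212 to 0.271 CPM in the others.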

How the results depend on the processing

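All 5 member calls of MSCs against OGDR and all 4 of rTMS-MSCs against OGDR passed the threshold under every alternative run: other scalings, filters and tests, the 8 libraries compared only, the replicate block and each library left out. In rTMS-MSCs against MSCs the member count of 3 ran from 1 to 4 with 1 library left out and was 1 without MSCs 3 and rTMS-MSCs 3 together; all tested genes called were 2475, from 1006 to 3196 with 1 left out and 677 without both. Other iron genes called there were 8, from 0 to 11 with 1 left out (0 without MSCs 3, where 14 had an unadjusted p under 0.05), 3 in the 8 libraries compared only and 0 without both (edgeR, 9 at an unadjusted p under 0.05). In MSCs against OGDR they were 12, from 7 to 13 with 1 left out. All tested genes called there were 2763, from 2243 to 3451 with 1 left out. The cause was not tested. No called member changed sign; several values near 0 that did not pass did. The replicate numbers did not pair the libraries: same-numbered libraries' deviations correlated from -0.20 to 0.13, and 4 of 12 libraries correlated best with their own number. The replicate block left the member counts at 5, 3 and 4, other iron genes called at 11, 7 and 17, and all genes called at 2577, 1995 and 4185. The alternatives for the other iron genes were chosen after seeing the data. Scarce rows had wide intervals, from -1.71 to 0.84 for Ncoa4 in MSCs against OGDR.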
